A study of Mus musculus with 6 samples.

Results

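Asparagine synthetase (Asns) and 9 other mouse genes known as targets of the amino acid response were followed in the livers of Fra-1hep mice. The 10 genes are Asns, Trib3, Chac1, Psat1, Phgdh, Psph, Sesn2, Vldlr, Aldh1l2 and Eif4ebp1, out of 19752 genes with a symbol on the array. They were chosen by the log2 ratio of Asns on these same arrays, known to be very high, and as other known targets set beside it, so their own ratios are described here without a test. All 10 have a probe, with 14 probes in all, and 9 of the 10 gave a value.

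Each array compared the liver RNA of Fra-1hep mice with that of a wild-type pool in 2 colours. Fra-1hep mice are C57BL/6J mice with raised Fra-1, the product of Fosl1, in hepatocytes. The sources used here do not give the driver of the transgene. Their partners were wild-type C57BL/6J mice, of which 5 on a chow diet gave 1 pool of RNA, and all animals were 26-28 weeks old and untreated. On 5 arrays a single Fra-1hep mouse was labelled with the red dye Cy5 and the wild-type pool with the green dye Cy3. On the sixth array, the dye-swapped one, the wild-type pool was in Cy5 and a pool of Fra-1hep liver RNA in Cy3. The design text counts 6 individual mutants, and the labels of the samples, which were followed, name 5 and this array of pools. The Fra-1hep pool was not taken as a further mouse, and the arrays of mice 2 and 3 were so alike that they were counted as 1 sample, leaving 4. Errors and p-values therefore measure the spread between these Fra-1hep samples against 1 wild-type pool, with no spread of the wild type itself. The fit has a constant for dye, which takes up any gap between the mice and the single dye-swapped array. That gap enters no error or p-value, although the array bears on every fitted value. The fit draws each gene's spread toward that of all genes, so an error is not that of its own gene alone.

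The amino acid response is a stress response in which uncharged transfer RNA activates the kinase GCN2 (Eif2ak4), which phosphorylates the initiation factor eIF2α. General translation then slows while the transcription factor ATF4 is made in larger amounts and binds C/EBP-ATF response elements in its target genes. PERK (Eif2ak3) feeds the same pathway from the endoplasmic reticulum, and HRI (Eif2ak1) and PKR (Eif2ak2) are the other kinases of eIF2α. Asns, which makes asparagine from aspartate and glutamine, is a classic target, and it is normally expressed at a low level in liver and at a high level in the exocrine pancreas.

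The promoter of Asns is shown because its core promoter carries both elements of the nutrient-sensing unit through which ATF4 acts on this gene. The motif TGATGNAA, the core of a C/EBP-ATF response element, and the motif GTTACA, the other element of that unit, were searched on both strands from 250 bases before to 50 bases after each RefSeq transcription start. Chac1 and Vldlr are set beside Asns because their promoters hold the same core in the other orientation, so that it reads TTGCATCA on the strand of the gene. The stretches are those of RefSeq on build GRCm38.p6, 5′ to 3′ on the strand of the gene, with the motifs in capitals. The stretch of Asns lies at chr6:7693207-7693262 on the minus strand, that of Chac1 at chr2:119351019-119351086 on the plus strand and that of Vldlr at chr19:27216790-27216857 on the plus strand.
Asns: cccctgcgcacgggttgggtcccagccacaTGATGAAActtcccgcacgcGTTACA
Chac1: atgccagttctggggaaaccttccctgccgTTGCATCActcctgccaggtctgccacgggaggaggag
Vldlr: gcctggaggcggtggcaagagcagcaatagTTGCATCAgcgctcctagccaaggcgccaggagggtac

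In Asns the TGATGAAA core lay at -23 to -16 relative to the start and GTTACA at -3 to 3. The core lay at -193 to -186 in Chac1 and at -200 to -193 from 1 of the 2 starts of Vldlr, and Trib3 held it as TTACATCA at 15 to 22 after its start. GTTACA was also present at -210 to -205 from the other start of Vldlr. Promoters were found for 8 of the 10 genes, 10 promoters in all, and 4 of these held TGATGNAA against 3.97% of all 32851 promoters of the same length. From 150 bases before the start it was 2 of the 10 against 2.75%. Nothing is read from these shares, because the members were chosen as known targets of this response. GTTACA was in 2 of the 10 against 8.25% of all, and TGANTCA, the site of AP-1 dimers such as those with Fra-1, in 0 of the 10 against 7.81%. At such a share 0 of 10 promoters is not unusual, so no lack of AP-1 sites is read from it. The motifs do not overlap one another in these promoters. A match of letters is a description of the sequence and not a measured binding site.

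Asns was higher in Fra-1hep liver on every array. The log2 ratio of Fra-1hep over wild type was 5.38 in mouse 1, 5.71 in mouse 2, 5.60 in mouse 3, 5.42 in mouse 4, 4.78 in mouse 5 and 5.54 on the array with the dyes exchanged, whose sign was turned to match. Mouse 5 was the lowest, and the array of pools lay among the other mice. The dye-normalised processed signal of Fra-1hep RNA was 12383 to 28896 and that of wild-type RNA 355 to 464, so the groups did not overlap and wild-type liver itself gave a signal above background on 6 of 6 arrays. The fitted log2 ratio was 5.42 (SE 0.14, n = 4 samples and the dye-swapped array), or 42.9-fold, the largest positive value among 22848 genes. The SD of the 4 samples was 0.37, against a median SD of 0.12 over all genes tested. Leaving out each mouse in turn gave 5.40 to 5.51, with mouse 2 or mouse 3 still present in each fit.

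**Figure D1:**
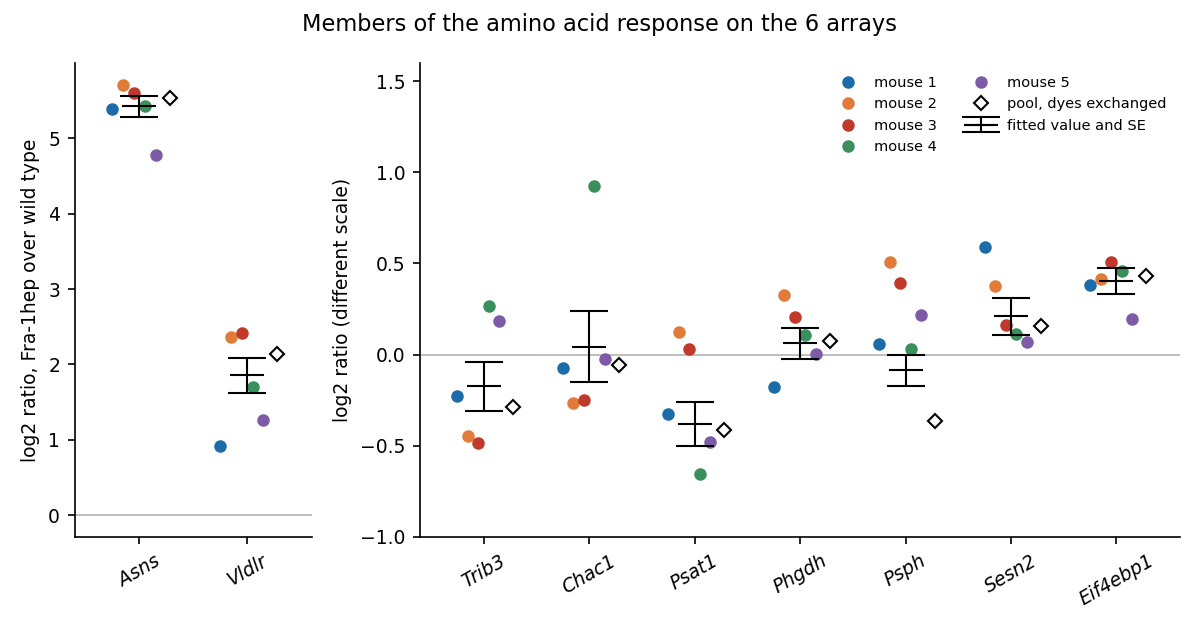
Log2 ratio of Fra-1hep over wild type (y axis) on each of the 6 arrays for the 9 genes with a value; circles are single mice, diamonds the dye-swapped array of pools, and bars the fitted value ± SE, with Asns and Vldlr on a wider scale than the other genes. Asns lies between 4.78 and 5.71 on all arrays, Vldlr between 0.92 and 2.42, and the other 7 genes have fitted values from -0.38 to 0.40.

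The genes whose ratios over the counted samples and the dye-swapped array (5 values) came closest to those of Asns were Lrtm2, Cela1 and Inava, with root mean square differences of 1.39, 1.83 and 1.98 on the log2 scale. This distance depends on the size of the ratio, so next to the highest gene it picks other very high genes. It does not show a shared pattern across mice. Lrtm2, for one, was at 3.92 in mouse 5, where Asns was lowest, and at 3.86 in mouse 4. Their fitted log2 ratios were 4.17 (SE 0.06), 3.52 (SE 0.09) and 3.34 (SE 0.08), each n = 4 samples and the dye-swapped array. Cela1, which encodes a pancreatic elastase, and Inava were above background in wild type on 6 of 6 arrays. Lrtm2 was so on 1 of 6, so that its ratio is closer to a lower bound and its distance from Asns is not well measured.

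Vldlr, the very low density lipoprotein receptor and an ATF4 target in liver, was the only other member with a log2 ratio above 1. Its log2 ratio was 0.92 in mouse 1, 2.36 in mouse 2, 2.42 in mouse 3, 1.70 in mouse 4, 1.27 in mouse 5 and 2.14 on the dye-swapped array. Mice 2 and 3 were the highest and mouse 1 the lowest, and the processed signals of 342 to 1297 in Fra-1hep and 115 to 161 in wild type did not overlap. The fitted value was 1.86 (SE 0.23, n = 4 samples and the dye-swapped array), or 3.62-fold. A second, dimmer probe of the gene gave 0.93, with 0.31 in mouse 1 and 1.46 in mouse 3, and was above background in wild type on 3 of 6 arrays. Both probes thus put mouse 1 lowest and mouse 3 highest, while the size of the ratio depended on the probe.

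**Figure D2:**
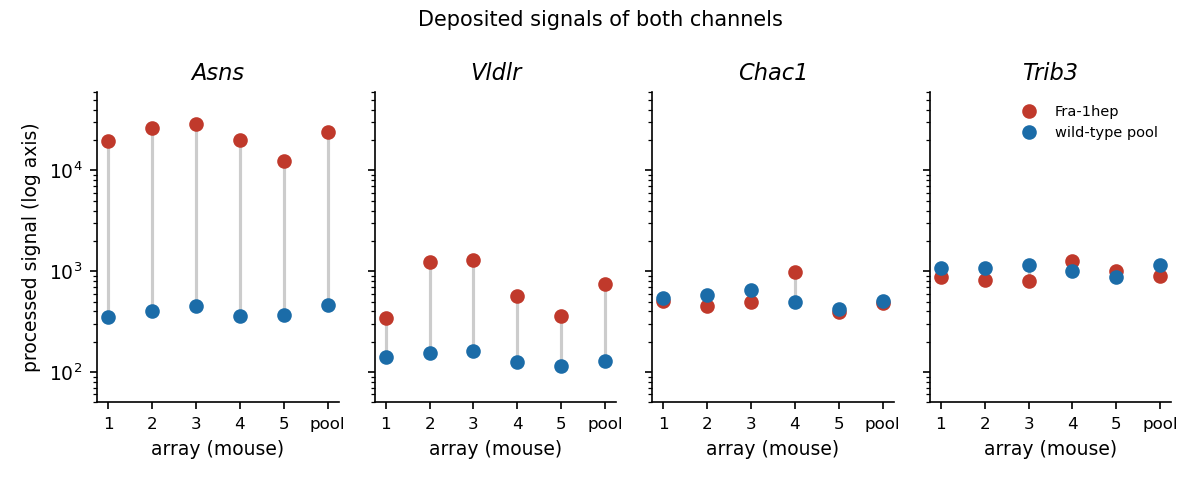
Processed signal (log y axis, arbitrary intensity units) of Fra-1hep RNA in red and wild-type RNA in blue on the 6 arrays (x axis) for Asns, Vldlr, Chac1 and Trib3, with grey lines joining both channels of an array; levels of different genes are not compared, since each is read by its own probe. The channels separate for Asns (12383 to 28896 against 355 to 464) and for Vldlr (342 to 1297 against 115 to 161) and overlap for Chac1 and Trib3.

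The enzymes of serine synthesis, which are standard ATF4 targets, did not share the ratio of Asns. Phgdh, which commits 3-phosphoglycerate to the pathway, had log2 ratios of -0.18 in mouse 1, 0.33 in mouse 2, 0.21 in mouse 3, 0.11 in mouse 4, 0.00 in mouse 5 and 0.07 on the dye-swapped array. These values lie on both sides of 0, with a fitted value of 0.06 (SE 0.09), and its other probe gave 0.09. Phgdh was dim, with processed signals of 46.7 to 138 in Fra-1hep and 57.5 to 106 in wild type. The ratios of its processed signals ran from 0.77 to 1.82. Psat1, the aminotransferase of the next step, had log2 ratios of -0.33 in mouse 1, 0.12 in mouse 2, 0.03 in mouse 3, -0.65 in mouse 4, -0.48 in mouse 5 and -0.42 on the dye-swapped array. Mice 2 and 3 lay above 0 and the other arrays below, with a fitted value of -0.38 (SE 0.12). Psat1 was dim, with processed signals of 22.6 to 76.0 in Fra-1hep and 56.9 to 75.0 in wild type, and the value moved to -0.95 when the processed signals were used and to -0.72 without the offset of the background correction. Its other probe was above background on 1 of 6 arrays in Fra-1hep and 0 of 6 in wild type.

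Psph, the phosphatase of the last step, had log2 ratios of 0.06 in mouse 1, 0.51 in mouse 2, 0.39 in mouse 3, 0.03 in mouse 4, 0.21 in mouse 5 and -0.36 on the dye-swapped array. The mice and the array with exchanged dyes fell on opposite sides of 0, so its fitted value of -0.09 (SE 0.09) became 0.19 without the latter. Its other probe ran from -0.41 in mouse 1 to 0.16 in mouse 3 and gave 0.04 on the dye-swapped array, with a fitted value of -0.10. Aldh1l2, the mitochondrial formyltetrahydrofolate dehydrogenase, exceeded background on 1 of 6 arrays in Fra-1hep and on 0 of 6 in wild type, so it was not tested and no fold is given. Its processed signals were 3.98 to 21.9 in Fra-1hep and 4.03 to 19.1 in wild type.

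Trib3 and Chac1 had small fitted ratios, with values that differed between mice. Trib3, a pseudokinase that restrains ATF4 activity, had log2 ratios of -0.23 in mouse 1, -0.45 in mouse 2, -0.49 in mouse 3, 0.27 in mouse 4, 0.19 in mouse 5 and -0.29 on the dye-swapped array. Only mice 4 and 5 were above 0, and the fitted value was -0.17 (SE 0.13). Chac1, which degrades glutathione, had log2 ratios of -0.07 in mouse 1, -0.27 in mouse 2, -0.25 in mouse 3, 0.92 in mouse 4, -0.02 in mouse 5 and -0.06 on the dye-swapped array. Mouse 4 alone was high, with a processed signal ratio of 2.00 where the lowest array gave 0.76, and the fitted value of 0.04 (SE 0.19) became -0.09 without mouse 4.

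Sesn2, a stress-induced leucine sensor that holds back mTORC1, had log2 ratios of 0.59 in mouse 1, 0.38 in mouse 2, 0.16 in mouse 3, 0.11 in mouse 4, 0.07 in mouse 5 and 0.16 on the dye-swapped array. All 6 were above 0, with mouse 1 the highest and a fitted value of 0.21 (SE 0.10). Eif4ebp1, the 4E-BP1 repressor of cap-dependent translation and an mTORC1 substrate, had log2 ratios of 0.38 in mouse 1, 0.41 in mouse 2, 0.51 in mouse 3, 0.46 in mouse 4, 0.20 in mouse 5 and 0.43 on the dye-swapped array. It had the smallest spread of the members, with an SD of 0.12 over the 4 samples, and a fitted value of 0.40 (SE 0.07). Its processed signals of 6832 to 12034 in Fra-1hep and 6222 to 8139 in wild type overlapped between arrays, although the Fra-1hep channel was the brighter one on each of the 6.

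Over the 9 members with a value the median log2 ratio was 0.06, against 0.01 over all genes tested. Asns, Vldlr, Sesn2 and Eif4ebp1 were above 0 on all 6 arrays, 4 of 9 where 14.0% of genes were. Nothing is read from this share, because the members were chosen with the ratios in view. Each of the 9 stood above background on 6 of 6 arrays, in Fra-1hep and in wild type alike. The sample of mice 2 and 3 was the highest of the 4 for 6 members (Asns, Vldlr, Psat1, Phgdh, Psph and Eif4ebp1) and the lowest for 2, Trib3 and Chac1, so the members did not rank the mice alike.

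**Figure D3:**
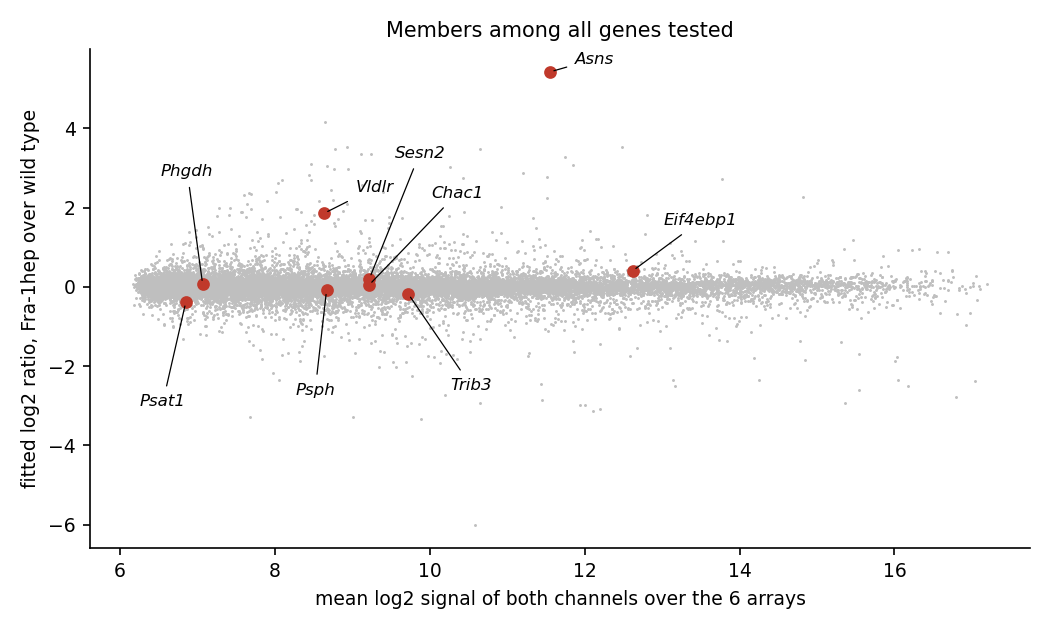
Fitted log2 ratio of Fra-1hep over wild type (y axis) against the mean log2 signal of both channels over the 6 arrays (x axis) for all 22848 genes tested, in grey, with the 9 members in red. Asns stands at 5.42, above every other gene, Vldlr at 1.86, and the other 7 lie from -0.38 to 0.40 within the cloud.

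Some facts of the whole set of arrays bear on these values. With a threshold of 0.05 on the adjusted p (limma, Benjamini-Hochberg), 2851 of 22848 genes (12.5%) changed, 1364 higher (5.97%) and 1487 lower (6.51%). Between 48.5% and 58.9% of probes were well above background in Fra-1hep RNA and between 45.0% and 50.7% in wild-type RNA, with 0 saturated spots. The probe of Fosl1 was above background in 0 of 6 arrays in either channel, so the labels could not be checked through the overexpressed gene. Hepatocyte markers were above background on all arrays, 12 of 12, with a median log2 ratio of 0.11. The median of this list was 0.10 to 0.34 in the counted samples but -0.25 on the dye-swapped array. Of these markers 10 did not pass, while Alb (-0.65) and Apoa1 (-0.34) fell. The mean of Alb over the 4 samples was -0.21, with 0.07 in mouse 4, against -1.08 on the dye-swapped array. The number of arrays, with 1 wild-type pool, limits the precision, and in whole liver fewer cells of a type and less RNA per cell cannot be told apart.

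Other targets of the pathway are given next. Of 47 further targets of ATF4 and the amino acid response, 42 were tested, and 1 rose, 6 fell and 35 did not pass, with a median log2 ratio of -0.02 against 0.01 over all genes. That is 16.7% changed against 12.5% of all genes (5.97% higher, 6.51% lower), and the 7 changed genes became 19 without the dye-swapped array and 15 without the dye term. The one that rose was Gpt2, the mitochondrial alanine aminotransferase, at 0.80 (SE 0.09, limma adjusted p = 0.0022). The secreted stress hormone Gdf15 fell by 1.13 (SE 0.13, limma adjusted p = 0.00188), and the leucine transporter Slc43a1 fell by 0.95 (SE 0.09, limma adjusted p = 0.00101) on the log2 scale. Gdf15 lay between -1.50 in mouse 4 and -0.68 in mouse 2, and was -1.19 on the dye-swapped array, so it was below 0 on all 6 arrays.

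Among the other targets that fell were Nupr1 at -0.63 (SE 0.08, limma adjusted p = 0.0048), a stress-induced chromatin protein, Gadd45a at -0.61 (SE 0.14, limma adjusted p = 0.0296), a growth arrest gene, and the transcription factor Atf3 at -0.51 (SE 0.09, limma adjusted p = 0.00914). The value of Nupr1 rests on 3 samples, since its spot on the array of mouse 4 was marked as an outlier. The call on Gadd45a was lost without mouse 1 (limma adjusted p = 0.0542), and those on Gadd45a and Atf3 were lost with the processed signals. Atf4 itself had a log2 ratio of 0.17 (SE 0.12, limma adjusted p = 0.398), from 0.01 in mouse 1 to 0.68 in mouse 4 and -0.04 on the dye-swapped array, and without that array it was called at 0.39. Ddit3, which encodes CHOP, was at 0.02 (SE 0.10, limma adjusted p = 0.911) and Fgf21, a liver hormone induced by amino acid shortage, at -0.08 (SE 0.17, limma adjusted p = 0.808). Both had values on either side of 0 among the mice.

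**Figure D4:**
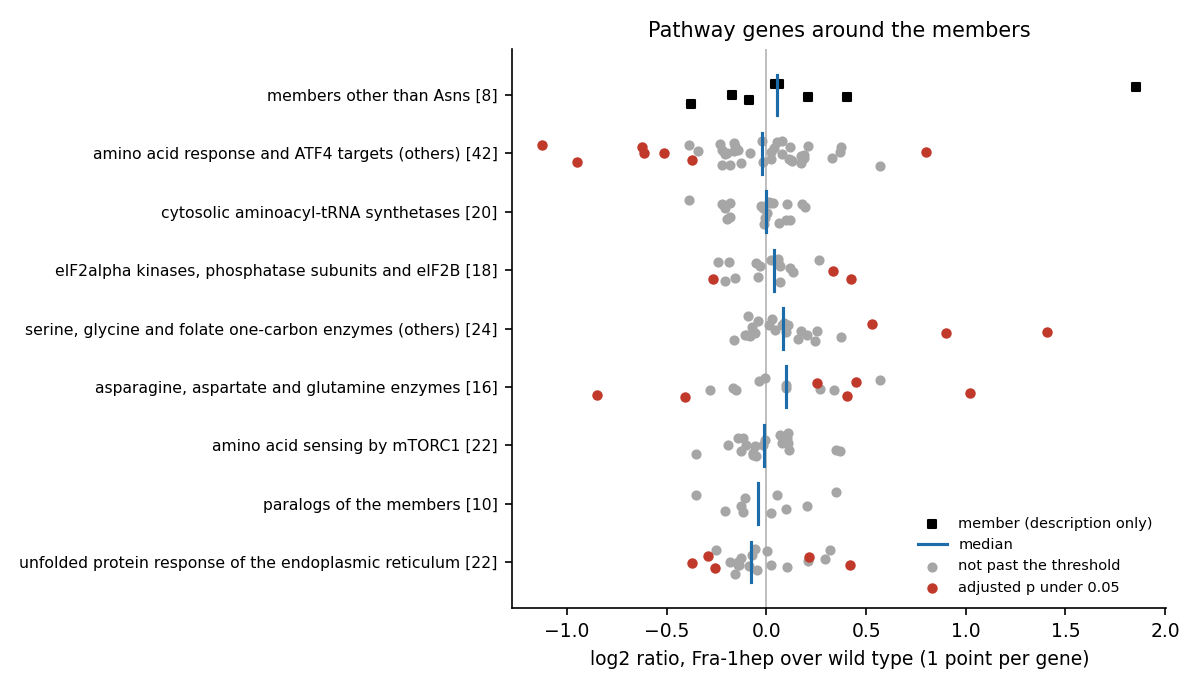
Fitted log2 ratio of Fra-1hep over wild type (x axis) for each tested gene of the pathway lists (rows), with genes past an adjusted p of 0.05 in red, the others in grey, blue lines at the median of each list, and the 8 members other than Asns, which are described only, as black squares in the top row. Gdf15 at -1.13 and Sdsl at 1.41 lie at the outer ends of the lists, and Asns at 5.42 is off the scale.

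The machinery upstream of ATF4 was read at the level of its transcripts. Of 18 genes for kinases of eIF2α, its subunits, its phosphatase and the exchange factor eIF2B, 2 rose, 1 fell and 15 did not pass, or 16.7% changed against 12.5% of all genes. Eif2ak3, the kinase PERK, rose by 0.42 (SE 0.09, limma adjusted p = 0.0189) and Eif2s1, which encodes eIF2α, by 0.33 (SE 0.06, limma adjusted p = 0.0126). Eif2ak1, the haem-regulated kinase HRI, fell by 0.27 (SE 0.06, limma adjusted p = 0.025), a call lost without mouse 4 (limma adjusted p = 0.0502) and, at -0.16, without the dye-swapped array (limma adjusted p = 0.0564). Eif2s1 was at 0.19 without that array, and its call was lost with the mean over all probes (limma adjusted p = 0.138). Eif2ak4, the kinase GCN2, was at -0.21 (SE 0.07, limma adjusted p = 0.1). With the processed signals 0 of the 18 passed. Transcript levels do not measure the phosphorylation through which these kinases act.

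Of the 20 cytosolic aminoacyl-tRNA synthetases, which charge transfer RNA and include many ATF4 targets, 0 passed in limma's test, with 7 at an unadjusted p under 0.05 and log2 ratios from -0.39 to 0.19. Of 25 genes of amino acid sensing by mTORC1, 22 were tested and 0 passed, with 4 at an unadjusted p under 0.05. Of 11 paralogs of the members, such as other sestrins and Tribbles genes, 10 were tested and 0 passed, with 3 at an unadjusted p under 0.05. Without mouse 5 each of these lists had 1 gene past the threshold, and so did mTORC1 sensing without mouse 1 or 4 and the paralogs without mouse 1. The mTORC1 list ran from -0.35 to 0.37 and the paralogs from -0.35 to 0.35, so that no gene in these lists had a ratio the size of that of Vldlr.

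Around the reaction that Asns carries out, several genes changed in both directions. Of 16 enzymes and carriers of asparagine, aspartate and glutamine, 4 rose, 2 fell and 10 did not pass (37.5% against 12.5% of all genes), with a median log2 ratio of 0.10. Adssl1, an adenylosuccinate synthase that uses aspartate, rose by 1.02 (SE 0.07, limma adjusted p = 0.000216), between 0.74 in mouse 5 and 1.14 on the dye-swapped array. The liver glutaminase Gls2 rose by 0.45 (SE 0.11, limma adjusted p = 0.0425), Ass1, the urea cycle enzyme that joins citrulline to aspartate, by 0.40 (SE 0.09, limma adjusted p = 0.0252) and the aspartate-glutamate carrier Slc25a12 by 0.25 (SE 0.06, limma adjusted p = 0.0346). Ass1 was at 0.57 to 1.08 in the mice and at 0.00 on the dye-swapped array, and without that array it was at 0.80.

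Glul, the glutamine synthetase of hepatocytes around the central vein, fell by 0.85 (SE 0.21, limma adjusted p = 0.0404), from -0.25 in mouse 1 to -1.69 in mouse 2. The glutamine transporter Slc38a3 fell by 0.41 (SE 0.09, limma adjusted p = 0.023), with -0.15 on the dye-swapped array and -0.67 without it, and 10 genes of the list changed without that array. Without mouse 4 the number of changed genes in this list was 3 in place of 6, with the calls on Gls2, Slc25a12 and Glul lost, and with the processed signals it was 1. The call on Gls2 was also lost without mouse 1 or 3 and that on Glul without mouse 5. Asnsd1, a gene with a domain like that of Asns, was at 0.10 (SE 0.06, limma adjusted p = 0.323), between -0.11 and 0.00 in the mice and at 0.27 on the dye-swapped array.

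In serine, glycine and folate metabolism beyond the members, 3 of 24 genes rose, 0 fell and 21 did not pass, 12.5% as over all genes, and 7 changed without the dye-swapped array. Sdsl, a serine dehydratase-like enzyme, was at 0.79 in mouse 1, 2.13 in mouse 2, 2.10 in mouse 3, 1.27 in mouse 4, 0.71 in mouse 5 and 1.59 on the dye-swapped array, and rose by 1.41 (SE 0.23, limma adjusted p = 0.00827). Its mice thus ranked with mice 2 and 3 on top, as for Asns and Vldlr. The call was lost with the processed signals. Sds, the serine dehydratase, rose by 0.90 (SE 0.13, limma adjusted p = 0.00423) and Gnmt, the glycine N-methyltransferase, by 0.53 (SE 0.09, limma adjusted p = 0.00762).

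The unfolded protein response shares ATF4 with the amino acid response through PERK. Of 22 such genes, 2 rose, 3 fell and 17 did not pass, or 22.7% changed against 12.5% of all genes. The chaperone cofactor Dnajb9 rose by 0.42 and the sensor Ern1 by 0.21, while the protein disulphide isomerases Pdia6 and Pdia4 fell by 0.37 and 0.26 and the lectin chaperone Calr by 0.30 on the log2 scale, with limma adjusted p from 0.0296 to 0.0486. Hspa5, the chaperone BiP and a standard marker of this response, was at 0.10 (SE 0.09, limma adjusted p = 0.502). Pdia4 was at -0.38 to -0.63 in the mice but at 0.02 on the dye-swapped array, and at -0.54 without that array, while Ern1 was then at 0.34. The number of changed genes was 2, 2, 1 and 1 without mouse 1, 2, 4 or 5 and 0 with the processed signals.

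Because Asns is abundant in exocrine pancreas, markers of acinar cells were set beside it. All 16 had a probe, 9 were tested, and Cela1 (3.52) and Spink1 (1.33) rose while 7 did not pass. That is 22.2% changed against 12.5% of all genes (5.97% higher). The summed processed signal of the 16 was 4378 to 6192 in Fra-1hep and 3386 to 4559 in wild type. These ranges overlapped between arrays, although the Fra-1hep sum was the higher one within every array. The sum includes Cela1 and Spink1, so it is not separate from their rise, and a sum without them was not taken. Of the other markers on the list, Cel, Clps, Ctrb1, Ctrl and Amy2a5 were above background on 6 of 6 arrays in both groups. Their log2 ratios ran from -0.00 to 0.17. Within these, Amy2a5 was at -0.19 to -0.37 in the mice and at 0.26 on the dye-swapped array. Cela3b, Cpb1, Pnlip, Prss2 and Ptf1a were above background on 0 arrays in either group. Cela2a was above background on 6 arrays in Fra-1hep and 1 in wild type, Zg16 on 4 and 0, and Cpa1 on 2 and 0.

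Markers of other liver cells also moved, where 12.5% of all genes changed (5.97% higher, 6.51% lower). Neutrophil markers rose, 9 of 10 tested, with a median log2 ratio of 2.29 and summed signals of 38507 to 84165 against 26057 to 35205, and macrophage markers fell, 10 of 11 tested, with summed signals of 45329 to 76150 against 85998 to 123170. Endothelial markers fell, 7 of 11 tested with 1 that rose, at a median of -0.42 and summed signals of 15489 to 18437 against 22768 to 29422. Lymphocyte markers fell, 8 of 12 tested, at a median of -0.33 and summed signals of 5263 to 8271 against 6218 to 8915. Of 7 cholangiocyte markers tested, Spp1 (1.04) and Epcam (0.41) rose, with summed signals of 1140 to 1899 against 751 to 1086, and of 10 stellate cell markers 1 rose and 1 fell. Median ratios of the neutrophil list were 1.02 in mouse 1, 2.65 in the sample of mice 2 and 3, 3.06 in mouse 4, 1.22 in mouse 5 and 2.58 on the dye-swapped array. Vldlr, like these markers, was lower in mice 1 and 5 than in mouse 4 and in the sample of mice 2 and 3. Asns was lowest in mouse 5, at 4.78, and nearly equal in mice 1 and 4, at 5.38 and 5.42. Asns and Vldlr were both highest in the sample of mice 2 and 3, where the markers were highest in mouse 4. The part of these cells in the ratios of the members was not tested.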

How the data were processed

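Images were extracted by the authors with Agilent Feature Extraction 10.7, per the submitters' processing notes, and version 10.7.3.1 by the headers of the files. Per the file headers, the deposited scanner output gives each spot's median signal and background as intensity, not normalised, a processed intensity that is background-subtracted and dye-normalised, its log10 ratio and marks for spots above background. A further table deposited by the authors has log2 ratios of the same processed signals. Its direction on the dye-swapped array was found by setting it against the scanner values.

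From the median signals, background was corrected with normexp (offset 50) and ratios were normalised within arrays by loess in limma 3.58.1 (R 4.3.3, the data.table package, version 1.17.8), with control and outlier spots at weight 0. With this offset, dim probes have ratios nearer to 0. Names came from the accession column and RefSeq (GRCm38.p6), 26056 of 55681 to 1 symbol. The array was designed on an earlier build, so no probe positions are given. Positions of promoter stretches and the order of genes are those of RefSeq. A gene is its brightest probe, tested if well above background in Fra-1hep on at least 3 of 5 mouse arrays or in wild type on at least 3 of 6 arrays (30110 probes kept, 22848 genes).

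The arrays of mice 2 and 3 differed by 1.12 times the spread of replicate spots, against 1.63 to 2.26 for other pairs of mice, and were averaged. limma (lmFit, eBayes) fitted a genotype coefficient and a dye constant, 2-sided, with Benjamini-Hochberg adjustment over all genes. Genes with an adjusted p below 0.05 are called changed. The dye-swapped array weighs as much as all mice together, and residual degrees of freedom were 3 (prior 4.67). On simulated data the fit called 52% of genes changed by 0.5 on the log2 scale, 92% at 1 and 100% at 2, and 6 of 22624 unchanged genes. The simulated noise was normal and independent between genes, with each gene's SD over the 4 samples used for the dye-swapped array too. In the data that array differed from single mice by 1.81 to 2.98 times the spread of replicate spots. These rates therefore hold for the simulated setting only.

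The members and gene lists were chosen with earlier results of these data known, so the members, though part of the fit over all genes, are given no p-value and no call, and lists no set test. Lists came from textbook knowledge, and some share genes. Named are all members, up to 5 genes higher and 5 lower past the threshold in each pathway list by size, Atf4, Ddit3, Eif2ak3, Eif2ak4, Fgf21, Gdf15, Hspa5 and Asnsd1 in any case, the 3 genes nearest to Asns, and Fosl1. Alternatives changed background, offset, normalisation, dye term, filter, probe rule, variance model, slide, and left out each array. Mice 2 and 3 were left out singly, so the fits without 1 mouse never lacked their joint sample. Marker sums add processed signals of each marker's probe, and 1 acinar marker is not reported here by name.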

Additional observations from a re-analysis of the deposited data

Results flagged for a closer look

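Among 37 named genes and members checked in the 4 counted samples, 2 had 1 sample far from the others, and chance alone flags about 1 in 20 such groups. Eif2ak4, the amino acid sensing kinase GCN2, was at -0.39 in mouse 1 while the other samples lay from -0.18 to -0.14. Pdia6, a protein disulphide isomerase, was at -0.20 in mouse 1 while the others lay from -0.60 to -0.54. Of the members, none was set apart in this way, and Chac1 in mouse 4, at 0.92, came closest.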

How the results depend on the processing

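The log2 ratio of Asns was 5.31 to 5.68 and above 0 in all 18 alternatives, and that of Vldlr 1.39 to 2.27. Phgdh and Sesn2 stayed above 0 and Trib3 and Psat1 below, while Chac1 ran from -0.09 to 0.16 and Psph from -0.13 to 0.19, with a change of sign. Eif4ebp1 ran from 0.37 to 0.56. The median of the members, 0.06, was 0.05 to 0.10 without 1 mouse, 0.19 without the dye-swapped array and 0.16 with median centring. Without the dye-swapped array Asnsd1 was at -0.065 and Ddit3 at -0.021, and without the dye term Ddit3 was at -0.0027.

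The number of changed genes, 2851, was 2319 to 2719 without 1 mouse, 1545 with the processed signals or the series table, 4787 without the dye term and 6099 without the dye-swapped array. Median centring moved the median of all genes to 0.08 and called 3300, of which 74.8% were higher, against 47.8% with loess. Without the dye-swapped array the lists had 19 changed genes among ATF4 targets, 7 in mTORC1 sensing, 10 around asparagine, 6 synthetases, 3 paralogs and 7 of serine metabolism. Without the dye term there were 15 ATF4 targets, 4 of mTORC1 sensing, 7 synthetases and 3 paralogs. With 5 separate mice, with or without the slide as a random block, there were 12 ATF4 targets, 1 of mTORC1 sensing, 2 synthetases and 1 paralog. With median centring there were 1 of mTORC1 sensing, 2 synthetases, 2 paralogs, 7 of serine metabolism and 2 of the unfolded protein response. The series table gave 4 ATF4 targets, and the table, the processed signals and an offset of 0 each gave 1 gene around asparagine and 0 of the unfolded protein response, with 0, 0 and 1 of the eIF2α list. Without background correction 1 gene of the unfolded protein response passed.

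Without 1 mouse, the lists had 0 to 1 changed genes in mTORC1 sensing, among synthetases and among paralogs, 3 to 7 around asparagine and 1 to 4 in the unfolded protein response. From 150 bases before the start, 2 member promoters held TGATGNAA and 1 held GTTACA. The cause of these shifts was not tested. No paired analysis was possible because the groups share no replicate numbers, the wild type being 1 pool.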

Other observations

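The genes on either side of Asns were read as values, a set chosen after the ratio of Asns was seen. Of the 5 nearest protein-coding genes on each side in RefSeq order, 5 of 10 were tested and 0 passed in limma's test, with 1 at an unadjusted p under 0.05 and log2 ratios from -0.15 to 0.05. Mios, an amino acid signalling component of the GATOR2 complex, was at -0.15 (SE 0.06, n = 4 samples and the dye-swapped array), Rpa3 at -0.13, Sdhaf3 at -0.03, C1galt1 at 0.03 and Sem1 at 0.05. Dlx5, Dlx6, Tac1 and Col28a1 were not tested.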
